A study of Mus musculus with 10 samples.

Results

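The comparison described here set neurites labelled as Cpeb1 knockout against wild-type neurites, both injured and left to regrow for 24 hours. Genes were taken in by 1 rule, a deposited value of at least 1 in at least 2 of the 5 injured libraries, and 13828 of the 45195 genes in the deposited matrix met it. Of these, 9283 reached a value of 1 in all 5 injured libraries. Just inside the rule, the 1538 genes that reached 1 in exactly 2 injured libraries had a median value of 1.27, and just outside it, the 3049 genes that reached 1 in a single injured library had a median of 0.549.

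Cortical neurons were taken from mouse embryos at E16.5 and grown on a porous membrane (3 µm pores), so that neurites grew through to its underside while cell bodies stayed on top. In the injured groups the underside was scraped at day 7, and all neurites were lysed at day 8 after the cell bodies had been wiped off the upper side. The injured knockout group (2 libraries) came from Cpeb1 flox/flox embryos on the C57BL/6 background, and the injured wild-type group (3 libraries) from C57BL/6 embryos. Naive groups of the same genotypes (2 knockout and 3 wild-type libraries), grown for the same 8 days without scraping, were used beside them. Neurons of every group, wild-type controls included, had been infected at plating with an AAV2 virus that expresses the recombinase Cre from the ubiquitous CAG promoter. The deletion therefore depends on viral delivery to each cell and is not limited to neurons. The labels do not say whether replicates came from separate cultures or litters, so the p-values below measure the spread between these libraries, which may be technical in part.

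CPEB1 is an RNA-binding protein that recognises the cytoplasmic polyadenylation element, a short U-rich sequence in the 3′ UTR of its target mRNAs. Together with poly(A) polymerases and deadenylases it lengthens or shortens the poly(A) tail of a target and so switches its translation on or off, and it can also shift the choice of polyadenylation site in the nucleus. In neurons it is known for the transport of mRNAs into dendrites and axons and for their local translation. Effects on translation alone would not be seen in the RNA levels measured here.

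Values are the authors' deposited expression values, taken here as FPKM (fragments scaled by gene length and library size) after division by a library factor. Between 12231 and 13101 genes per injured library had a value of at least 1, and the deposited matrix gives no counts, so depth is known only through the steps between low values (if these are FPKM, knockout injured libraries held 27 and 28 and wild-type injured ones 21.4 to 23.2, in units of 1e6 fragments). Wild-type injured replicate 3 stood apart: its mean correlation with the other libraries was 0.839, against 0.867 to 0.898 for the rest. The share of summed values held by ribosomal RNA gene models was 12.1% and 15.1% in the knockout injured libraries and 19.9% to 28.2% in the wild-type ones, and its part in the results was not tested. Neuronal markers were abundant in every injured library (Neurod6 between 129 and 271, Snap25 between 149.6 and 306). The defining astrocyte marker Gfap was present as well, at 243 and 256 in the knockout and at 187, 159 and 558 in the wild type. The microglial marker Cx3cr1 was listed at 0 in all 10 libraries. Csf1r, the other defining one, reached 1.61 in wild-type injured replicate 2 and 1.28 in naive knockout replicate 2. The 6 measured members of the microglia and macrophage list summed to 66.9 and 116 in the injured knockout and to 35.1, 43.4 and 131 in the injured wild type.

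Cpeb1 itself was at 1.14 and 3.15 in the injured knockout libraries and at 1.65, 13.8 and 22.6 in the injured wild-type libraries. Wild-type replicate 1 lay within the knockout range, so the groups overlapped, and the gene was not at 0 in either knockout library. The difference was −1.71 ± 0.91 (SE) on the log2(value + 1) scale and did not pass (adjusted p = 0.549, limma on all tested genes with Benjamini-Hochberg adjustment). Naive libraries gave 5.97 and 0.356 in the knockout and 7.16, 5.96 and 5.86 in the wild type, a difference of −1.25, and here too 1 knockout library reached the wild-type range. The labels do not say which exons the loxP sites flank, so reads from outside the deleted part cannot be set aside. Of the paralogs, which bind related elements, Cpeb3 was at 4.07 and 0.396 against 6.65, 4.76 and 6.74 (−1.39 ± 0.68, adjusted p = 0.5). Cpeb2 (−0.70, adjusted p = 0.731) and Cpeb4 (0.37, adjusted p = 0.868) overlapped between the groups.

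In the injured comparison 41 of the 13828 genes passed an adjusted p of 0.05, which is 0.296% of them and 0.261% of the 15712 genes tested over all groups. Of the 41, 27 were higher (0.195%) and 14 lower (0.101%) in the knockout. With that outlying library, wild-type replicate 3, left out, 42 genes passed, 31 of them among the 41, and without knockout injured replicate 2 the count fell to 24. A further 1884 genes were tested but fell outside the rule, and none of those was called. At an unadjusted p under 0.05 there were 1642 genes, or 10.5% of those tested. The median difference over all tested genes was −0.05, and it was 0.20 with every library scaled to the same total, where 45 genes passed, 35 higher and 10 lower. Fitted on the 5 injured libraries alone, 32 genes passed (12 higher and 20 lower), 16 of them among the 41. Fold changes on the log2(value + 1) scale understate the change of genes with low values.

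**Figure D1:**
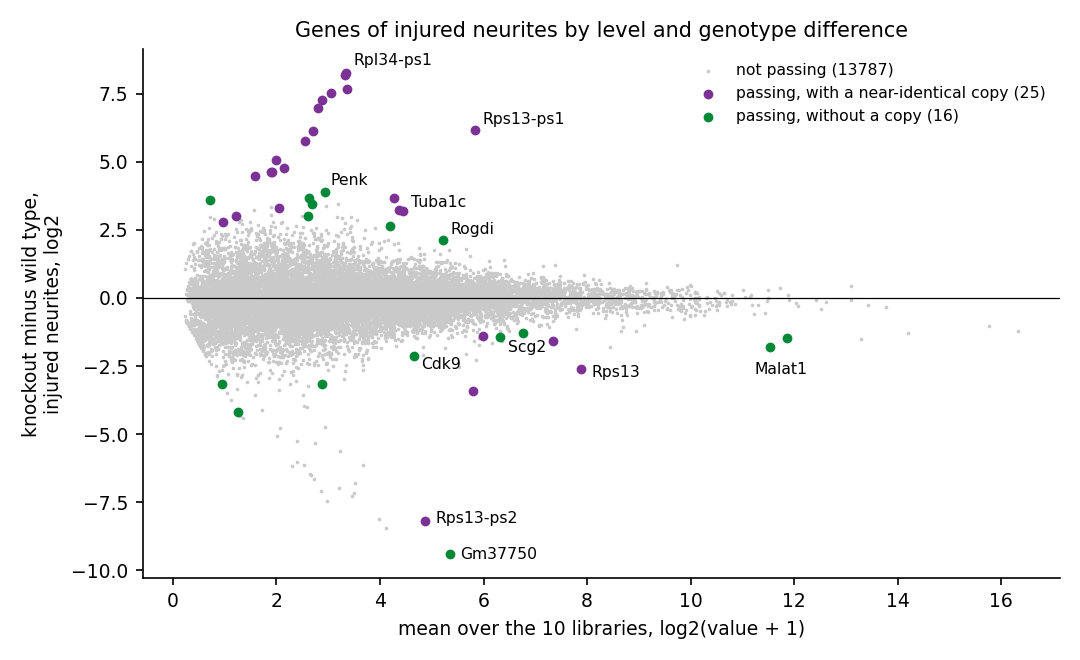
Difference between knockout and wild-type injured neurites (log2 scale, vertical axis) against the mean level over the 10 libraries (horizontal axis, log2(value + 1)) for the 13828 genes, each gene 1 point, with the 41 that passed coloured by whether they have a near-identical copy elsewhere in the genome. The called genes with a copy reach differences of about 8 in either direction, and most grey points lower by more than 5 are short gene models that did not pass.

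The 41 genes fell into groups of very different kind. There were 18 protein-coding genes (11 higher, 7 lower), 18 pseudogenes (15 higher, 3 lower, out of 404 pseudogenes among the members), 2 small RNAs and 3 other noncoding gene models. A near-identical copy, meaning another transcript with at least 95% identity over at least 150 nucleotides and 50% of the shorter transcript, existed for 25 of the 41. Called genes made up 1.59% of the 1568 members with such a copy and 0.131% of the 12260 without one. Of the 41, only Penk, Tuba1c, Hddc3, Rogdi, Scg2, Kpna2, Kif1a, Cdk9, Malat1 and Rps13 met the rule for named genes, and the others are named below after their values were seen.

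Of the 10 called protein-coding genes without a copy, 6 were higher and 4 lower in the injured knockout. All 10 lost their call when the 5 injured libraries were fitted alone. A cytoplasmic polyadenylation element, searched as TTTTAT or TTTTAAT on the transcript strand of the longest annotated 3′ UTR, occurred in 3 of the 10 (30%), against 63.6% of the 12158 members with an annotated 3′ UTR and 56.8% of all such genes in the matrix. These 3 elements are shown because they are the sequence CPEB1 is known to bind, each with 10 bases on either side and the motif in capitals (GENCODE M21 on GRCm38/mm10, printed 5′ to 3′ along the transcript). The Scg2 element at chr1:79434688-79434713 (minus strand) starts 35 bases before the annotated end of a UTR of 482 bases. That of Slc4a2 at chr5:24440872-24440897 (plus strand) lies 69 bases before the end of a UTR of 198 bases, and that of Tcerg1l at chr7:138209053-138209078 (minus strand), 1 of 2 in that UTR, lies 95 bases before the end of 717 bases. A match describes the sequence only and shows no binding.
Scg2: ctattgtgtgTTTTATtgttgattaa
Slc4a2: ccctcctcatTTTTATttaagtgaat
Tcerg1l: tttgagttatTTTTATtgtgtgccca

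Penk, the precursor of the enkephalin opioid peptides and a marker of some interneurons, gave the smallest p of the coding genes without a copy. It was at 14.3 and 13.3 in the injured knockout libraries and listed at 0 in all 3 injured wild-type libraries (adjusted p = 0.00221, limma). The naive libraries held 14.1 and 17.2 in the knockout and 26.3, 23.8 and 15.5 in the wild type, so only the injured wild-type neurites were without it. In such bulk samples fewer cells of a type and less RNA per cell cannot be told apart. The call held with each of the 10 libraries left out in turn, and was lost when the 5 injured libraries were fitted alone (adjusted p = 0.102). Its exons overlap A830012C17Rik over 14.3% of their length.

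The same arrangement of the 4 groups was seen in Tcerg1l, which has the element shown above. Injured knockout libraries held 10.004 and 9.683, and all 3 injured wild-type libraries were listed at 0 (adjusted p = 0.012, limma). Naive neurites of both genotypes had 10.8 to 18.7. The call was lost without knockout replicate 1 or 2 (adjusted p = 0.118 to 0.133) and at a pseudocount of 5.

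Asphd1, which carries an aspartyl hydroxylase domain, was at 19.5 and 7.93 in the injured knockout and at 0, 0.12 and 0.04 in the injured wild type, with no overlap. The difference was 3.69 ± 0.57 (SE, adjusted p = 0.0141, limma), and without knockout replicate 1 the adjusted p was 0.238. Rogdi, a neuronal protein whose human counterpart is mutated in a syndrome of epilepsy and enamel defects, was at 63.5 and 88.7 against 13.7, 14.7 and 21.1. It was higher by 2.14 ± 0.29 (SE, adjusted p = 0.00516, limma), and lost its call without knockout replicate 2 (0.126). Dis3l, an exoribonuclease of the cytoplasmic exosome that degrades RNA from the 3′ end, was at 12.7 and 14.6 against 0.44, 0.95 and 1.16. Its difference of 3.01 ± 0.53 (SE) passed narrowly (adjusted p = 0.0357, limma) and failed in 8 of the 10 fits that left out a library (0.0653 to 0.247), holding only without wild-type injured replicate 2 or 3.

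For these 5 genes the naive genotypes lay much closer together. Naive values of Rogdi were 48.3 and 41.2 in the knockout and 38.9, 39.5 and 46.9 in the wild type, and those of Asphd1 were 11.0 and 12.1 against 11.0, 18.7 and 9.77. Dis3l was the exception among them, with naive values of 4.79 and 6.25 against 8.13, 8.79 and 14.0, all lower in the knockout. In wild-type neurites all 5 fell with injury, by 4.48 for Penk, 3.97 for Tcerg1l, 3.70 for Asphd1, 2.60 for Dis3l and 1.31 for Rogdi on the log2 scale. In knockout neurites the injury differences were −0.16, −0.61, 0.11, 1.18 and 0.74 in the same order. Each injury contrast shares its injured libraries with the genotype contrast, so these values stand beside it and are not independent of it.

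The sixth, Hddc3, a hydrolase related to the bacterial enzymes of the stringent response, differed in both states. Injured values were 53.7 and 64.4 in the knockout and 6.59, 13.7 and 7.09 in the wild type, and naive values were 83.3 and 48.8 against 3.63, 9.36 and 5.49. The groups did not overlap in either state, and the differences were 2.63 ± 0.45 (SE, adjusted p = 0.03, limma) and 3.26 (0.00651). Leaving out any of 6 libraries ended the injured call (adjusted p = 0.0554 to 0.247): both knockout injured libraries, both knockout naive libraries and wild-type injured replicates 1 and 3. Hddc3 lies on chromosome 7, 996 kb from Cpeb1, and 76.3% of its exon length overlaps Man2a2 or Gm18310, so reads may belong to either neighbour, since these libraries do not mark strand. Of the 66 members within 5 Mb of Cpeb1, it was the only one called, and their median difference was −0.04.

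Lower in the injured knockout were Cdk9, Slc4a2, Scg2 and Kif1a. Cdk9, the kinase of the elongation factor P-TEFb that releases paused RNA polymerase II, was at 12.2 and 6.63 in the knockout against 36.8, 42.9 and 48.6. The difference of −2.11 ± 0.34 (SE, adjusted p = 0.02, limma) was lost without knockout replicate 2 or wild-type replicate 3 (0.0505 to 0.194) and under same-total scaling. Slc4a2, an anion exchanger that trades chloride for bicarbonate, was at 1.04 and 0.11 against 14.8, 9.91 and 13.2, a difference of −3.16 ± 0.54 (SE, adjusted p = 0.03, limma). It kept its call only without wild-type injured replicate 2 or wild-type naive replicate 3, and reached 0.0503 to 0.213 in the other 8 fits. Naive values of both genes overlapped between genotypes, with Slc4a2 at 11.1 and 7.10 against 6.42, 7.55 and 12.975.

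Scg2 and Kif1a belong to the dense-core vesicle system, as a granin stored in the vesicles and as a kinesin motor that carries them and synaptic vesicle precursors. Scg2 was at 55.5 and 93.8 in the injured knockout against 188, 203 and 196, a difference of −1.42 ± 0.26 (SE, adjusted p = 0.0417, limma). Its naive values were 36.9 and 42.7 in the knockout and 52.6, 64.7 and 45.6 in the wild type, so the injured wild-type libraries stood above all others, and the injury difference was 1.84 in the wild type and 0.85 in the knockout. Kif1a was at 49.2 and 48.8 against 92.6, 131 and 146 (−1.29 ± 0.23, SE, adjusted p = 0.0417, limma), and at 117 to 166 in the naive libraries. The calls of Scg2 and Kif1a were the least stable of the 10, each lost in 9 of 10 fits that left out a library, and both were also lost under quantile, median-ratio and same-total scaling. Scg2 kept its call only without knockout injured replicate 2 (largest adjusted p elsewhere 0.366) and Kif1a only without wild-type injured replicate 1 (0.274).

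**Figure D2:**
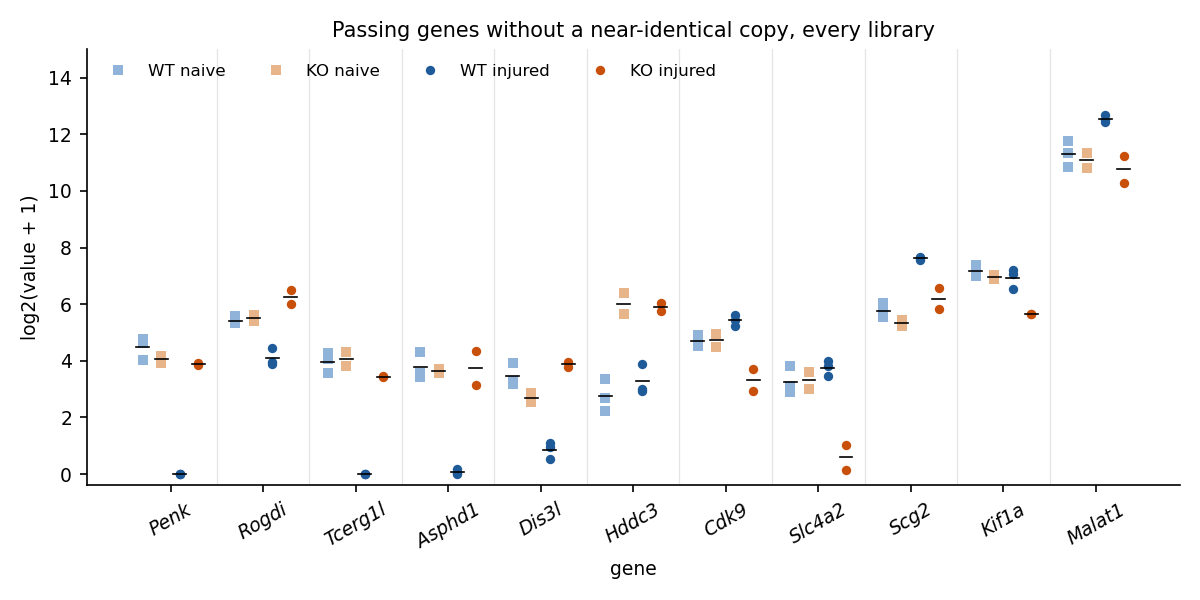
Level in each of the 10 libraries, as log2(value + 1) on the vertical axis, for the 10 called protein-coding genes without a near-identical copy and Malat1. Each point is 1 library and each bar a group mean. For Penk, Tcerg1l and Asphd1 the injured wild-type libraries sit at or near 0 while the 3 other groups lie between values of 7.93 and 26.3.

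Malat1, a long noncoding RNA that is retained in the nucleus, was at 1236 and 2424 in the injured knockout and at 6633, 5818 and 5513 in the injured wild type. The groups did not overlap, and the difference was −1.79 ± 0.29 (SE, adjusted p = 0.02, limma). Naive values were 1797 and 2582 in the knockout and 2603, 3440 and 1856 in the wild type, so the injured wild-type libraries stood above all others. Gm37376, an unnamed model inside Malat1, was called with it (−1.46 ± 0.22, adjusted p = 0.0141, limma). Neither call held when the 5 injured libraries were fitted alone. Malat1 lost its call without knockout replicate 1 or wild-type replicate 1 or 2 (adjusted p = 0.0522 to 0.302), and under same-total scaling. Of the 14 nuclear-retained transcripts measured, Malat1 was the only one called and 11 lay below 0, with a median of −0.46. Gas5, a host of small nucleolar RNAs, was at 291 and 278 against 682, 518 and 836 (adjusted p = 0.0708). Gas5 passed without wild-type injured replicate 2 or either naive knockout library, at a minimum value of 5 and with quantile normalization (0.0267 to 0.0477). Rn7sk, the RNA that holds P-TEFb inactive, was at 57.4 and 280 against 589, 263 and 481 (0.351).

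The 4 remaining calls without a copy were short or unnamed models. Gm22767, a small Cajal body RNA, was at 12.6 and 9.84 in the injured knockout and listed at 0 in all 8 other libraries. It passed the filter on low values through those 2 libraries alone, so its test (adjusted p = 0.00461, limma) draws on the values that let it in, and it was lost at a minimum value of 5 (0.16) and with the 5 injured libraries alone (0.167). Snora65, a small nucleolar RNA inside Rpl12, was listed at 0 in both knockout libraries and at 21.02, 11.62 and 21.33 in the wild type, and Gm38098 was at 0 against 6.51, 7.17 and 10.9. Both were listed at 0 in the naive libraries of either genotype, so they too passed the filter only through the group where they are high. Gm37750 was at 0 in all 4 knockout libraries, at 705, 366 and 1179 in the injured wild type and at 405, 418 and 240 in the naive wild type (adjusted p = 9.6e-08, limma). It passed the filter only through the wild type, where it is high. Its call held with each library left out, while that of Snora65 was lost without either knockout injured library (0.0578 to 0.0606) and that of Gm38098 without any knockout library or wild-type naive replicate 2 (0.0557 to 0.211). The transcript of Gm37750 is 129 nucleotides long and that of Snora65 130.

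Library differences at this transcript length stand beside those calls. The shortest gene with a value above 0 was 128 nucleotides in every knockout library and in wild-type naive replicate 1, and 122 to 126 in the other 5 wild-type libraries. Of 4899 gene models of at most 130 nucleotides, 1 was above 0 in each knockout library, 28, 42 and 35 in the injured wild type, and 2, 20 and 38 in the naive wild type. Among all members, 21 were lower by more than 5 on the log2 scale, and 19 of these did not pass (adjusted p = 0.0552 to 0.481, limma). All 19 were miRNA gene models of 125 or 126 nucleotides, listed at 0 in the 4 knockout libraries and in wild-type naive replicate 1. The part of transcript length in the calls of Gm37750 and Snora65 was not tested.

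The remaining 25 calls (20 higher, 5 lower) had a near-identical copy, and reads can be split differently between such copies by the counting. Processed pseudogenes are inserted copies of an mRNA. Some called pairs differ by 1 or 2 bases, and windows around 3 of these differences are shown because a read covering that base is all that tells the copies apart there (GRCm38/mm10, positions counted from 1 at the 5′ end of each window, differing base in capitals). Rps13 at chr7:116332379-116332402 (minus strand, coding exon) and Rps13-ps1 at chr8:87048118-87048141 (plus strand) differ by T13C, the single difference in 448 aligned bases. Kpna2 at chr11:106991292-106991315 (minus strand) and Gm10184 at chr17:89909610-89909633 (minus strand) differ by A13G, 1 of 2 differences in 1968 bases. Atp6v0c at chr17:24164840-24164863 (minus strand) and Atp6v0c-ps2 at chr6:37806184-37806207 (plus strand) differ by T13C, the single difference in 465 bases.
Rps13: ggtgctcccaccTaattggaaata
Rps13-ps1: ggtgctcccaccCaattggaaata
Kpna2: tcttacctggacActttcaaacct
Gm10184: tcttacctggacGctttcaaacct
Atp6v0c: cacagccaagagTggcactggcat
Atp6v0c-ps2: cacagccaagagCggcactggcat

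The Rps13 family, which encodes a protein of the small ribosomal subunit, held 3 of the calls, and they went in opposite directions. Rps13 was at 84.0 and 92.7 in the injured knockout and at 545, 487 and 603 in the injured wild type (−2.61 ± 0.20, SE, adjusted p = 1.64e-05, limma). Rps13-ps1 was at 613 and 701 against 14.4, 14.9 and 2.03, a difference of 6.18 ± 0.55 (SE). Rps13-ps2, with 0 differences from Rps13 over 422 aligned bases, was listed at 0 in both knockout libraries and at 293, 224 and 368 in the wild type. Summed over the 6 genes of the family, the values were 699 and 797 in the knockout and 852, 732 and 979 in the wild type, which overlap (log2 difference −0.18). In this family the differences between copies were thus much larger than that of their sum.

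Kpna2, the importin alpha that carries nuclear cargo, showed the same arrangement with the gene model Gm10184. Kpna2 was at 30.4 and 44.5 against 85.4, 97.1 and 119 (−1.41 ± 0.26, SE, adjusted p = 0.0417, limma), and lost its call in each of the 10 fits that left out a library (0.0613 to 0.36). Gm10184 was at 59.1 and 60.1 against 0, 0.43 and 0 (adjusted p = 0.000126, limma). The family of 5 summed to 89.6 and 104.5 in the knockout and 85.5, 97.6 and 119 in the wild type, a difference of −0.04. Atp6v0c-ps2, a copy of a subunit of the vacuolar proton pump, was at 67.6 and 225 against 0 in all 3 wild-type libraries, and its family differed by 0.13.

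Many of the other calls with a copy were at or near 0 in the injured wild type. Rpl34-ps1 was at 292 and 315, Rps3a3 at 151 and 225, Eno1b at 207 and 112, Gm15920 at 67.7 and 69.2, and Gm9855 at 36.3 and 29.7 in the injured knockout, and all 5 were listed at 0 in the injured wild type. These 5 calls, and those of Rps13, Rps13-ps1, Rps13-ps2, Gm10184 and Atp6v0c-ps2, held with each of the 10 libraries left out in turn. Rps3a2 (248 and 362), Gm6166, a copy of the fatty acid carrier Fabp5 (220 and 206), Gm4735 and the histone model Hist1h2al (26.1 and 17.4) were likewise near 0 in the wild type and stable to leaving out a library. Of these stable calls, all but Rps13 and Rps13-ps1 passed the filter on low values only through the genotype where they are high. Their tests draw on the values that let them in, and leaving out a library does not remove that limit. Gm15446, Tdg-ps and Gm13306 were higher and less stable, lost in 7, 10 and 10 of the 10 fits that left out a library (adjusted p up to 0.269, limma). Tdg-ps and Gm13306 also passed the filter only through the knockout, so the same limit holds for their tests. Rps16-ps2 was lower, at 24.4 and 2.99 against 103, 77.4 and 158, and lost its call in 7 of these fits (0.0531 to 0.194). In all, 8 of the 25 were listed at 0 in the 3 injured wild-type libraries and 1 in both knockout libraries. Of the 17 families to which the 25 genes belong, the summed difference ranged from −1.31 to 0.61. Sums lay above all wild-type ones for Fabp5 (949 and 873 against 602, 543 and 688), Tdg (97.6 and 87.2 against 72.8, 58.4 and 50.8), Rnps1 (187 and 193 against 142, 131 and 162) and alpha-tubulin. They lay below for the Ccl27a family, which holds Gm13306, and that of Gm47283, and overlapped in the others. The family at −1.31 was that of Gm47283, a gene model on the Y chromosome at 101 and 105 against 345, 249 and 351 (−1.58 ± 0.26, SE, adjusted p = 0.0232, limma). Its call was lost without either knockout injured library or wild-type injured replicate 1 or 3 (0.062 to 0.238).

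**Figure D3:**
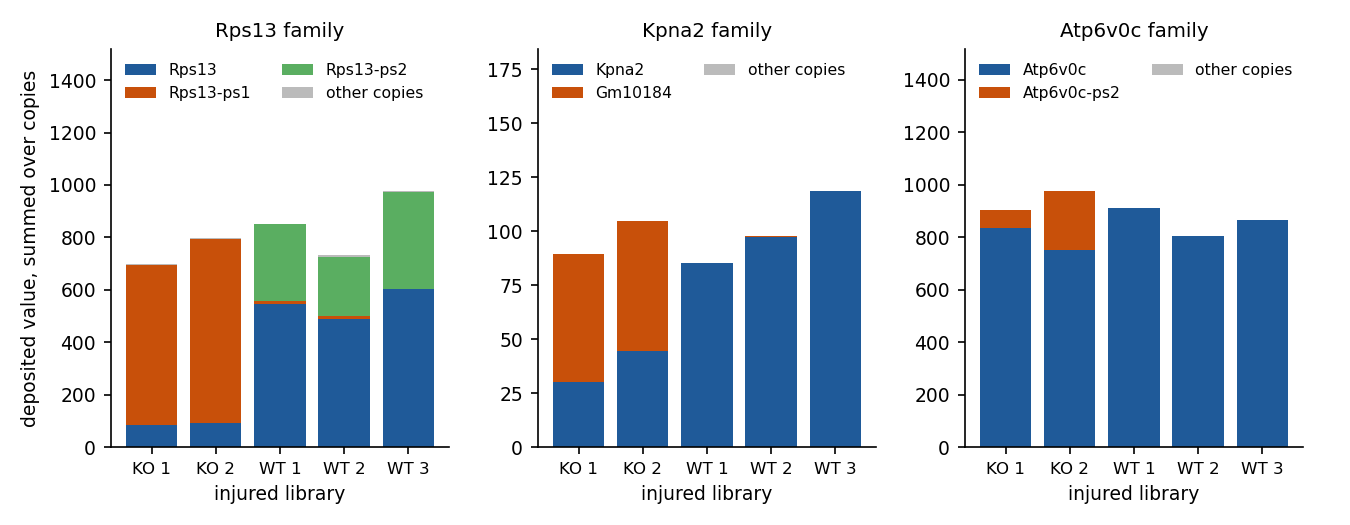
Deposited values in the 5 injured libraries for the Rps13, Kpna2 and Atp6v0c families, each bar 1 library and each colour 1 copy, stacked to the family sum. The called copies take up different shares of the bar in the 2 genotypes, while the family sums lie within 699 to 979, 85.5 to 119 and 804 to 978.

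Tuba1c, an alpha-tubulin on the regeneration-associated list, had another pattern. It was at 132 and 156 in the injured knockout and at 7.81, 11.8 and 33.6 in the injured wild type (3.20 ± 0.49, SE, adjusted p = 0.014, limma). In naive neurites it was at 178 and 175 against 1.26, 1.49 and 0.69 (6.39, adjusted p = 1.89e-05). It was the only called gene with a copy that also passed for injury in the wild type, where it rose by 2.90 (adjusted p = 0.00824). The call was lost without knockout replicate 1 or 2 (0.141 to 0.184), and the closest copy, Tuba1b, is 99.4% identical over 1307 bases. Gm14150, a pseudogene of Tuba1b, was also higher, at 68.3 and 76.3 against 3.93, 6.25 and 4.35. The sum of the 8 genes of the alpha-tubulin family differed by 0.45.

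Naive libraries, which share none of the injured libraries, separated these kinds of call. The naive genotype comparison called 23 genes (0.146% of those tested), 20 higher (0.127%) and 3 lower (0.0191%), and 590 (3.76%) passed at an unadjusted p under 0.05. Of the 23, 22 were also called in injured neurites. The exception was Mrpl48-ps, at 5.47 and 7.17 in the injured knockout and 0 in the injured wild type (adjusted p = 0.0552). All 25 called genes with a copy had the same sign in naive neurites, 24 did not overlap there and 20 were called there. Many of the 25 passed the filter on low values only through the genotype where they are high, naive libraries included. Their naive tests carry the same limit as their injured ones. Of the 16 called genes without a copy, 8 had the same sign, 4 did not overlap in naive neurites and 2 were called, Hddc3 and Gm37750. Over all members 51.0% had the same sign in both states. The share of all members without overlap in naive neurites was not counted, so the counts of 24 and 4 have no share to stand beside. In injured neurites that share was 23.5%.

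**Figure D4:**
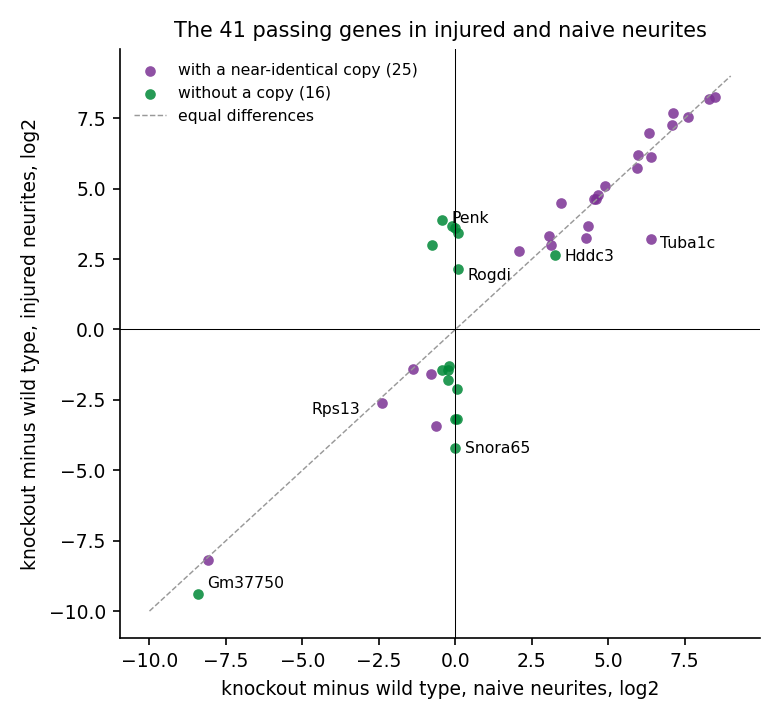
Difference between knockout and wild type in injured neurites (vertical axis) against that in naive neurites (horizontal axis), both on the log2 scale, for the 41 called genes, coloured by whether they have a near-identical copy. The 25 genes with a copy lie in the quadrants of equal sign, most of them near the line of equal differences, and those without a copy, apart from Hddc3 and Gm37750, lie near 0 on the naive axis.

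Injury called 149 genes in the wild type (0.948% of those tested) and 9 in the knockout (0.0573%), in groups of unequal size. Of the 16 called genes without a copy, 10 were also called for injury in the wild type and 1, Gm22767, in the knockout. These genes were chosen on injured libraries that the injury contrasts share, so the injury calls are not independent. Gm22767, Snora65 and Gm38098 were listed at 0 in all naive libraries, so their injury and interaction tests draw on the values that let them in. The test of whether the genotype difference itself differed between injured and naive neurites called no gene (0% of those tested, limma), with 979 genes (6.23%) at an unadjusted p under 0.05 and a smallest adjusted p of 0.457. Of the 41 called genes 16 passed that test unadjusted. Without a mean-variance trend it called 3 genes, Penk, Gm22767 and Snora65. The genes with the smallest p and at least median expression were Penk (4.32), Rogdi (2.04), B4galnt1 (1.90) and Gpr12 (2.02) among those more positive in injured neurites. Tuba1c (−3.19), Cdk9 (−2.16), Fos (−3.35) and Lims1 (−2.66) were the 4 in the other direction. Naive differences of the former were −0.43, 0.10, −0.49 and −0.61, beside 3.89, 2.14, 1.40 and 1.41 in injured neurites. Those of the latter were 6.39, 0.04, 2.15 and 1.19, beside 3.20, −2.11, −1.20 and −1.47. For Fos the naive difference was thus larger than the injured one and of opposite sign.

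Several named genes came close to the threshold without passing. Among those higher in the knockout, Tubb3, the neuronal beta-tubulin, was at 1291 and 927 against 476, 751 and 305 (1.19 ± 0.29, SE, adjusted p = 0.17, limma). Tubb4a was at 180 and 146 against 62.6, 98.1 and 56.9 (1.19, adjusted p = 0.0718), and Ncdn, a regulator of neurite outgrowth, at 80.7 and 81.5 against 42.3, 34.2 and 32.6 (1.14, 0.0721). Syndig1, a synaptic AMPA receptor partner, was at 25.4 and 9.61 against 2.2, 0.144 and 0 (3.44, 0.0708). B4galnt1, a ganglioside synthase (1.40), Ide, an insulin-degrading protease (1.85), Spryd7 (1.32) and Snhg20 (1.24) had adjusted p of 0.102 to 0.176. None of these groups overlapped, which was a condition of the rule that named these genes. Syndig1 passed without wild-type injured replicate 1 and at a minimum value of 5, Tubb4a and Tubb3 passed without wild-type injured replicate 2, and Tubb4a and Ncdn passed with equal totals.

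Among those lower, Pola2, the second subunit of DNA polymerase alpha, was at 1.75 and 2.4 against 14.5, 15.9 and 15.3 (−2.41 ± 0.47, SE, adjusted p = 0.0621, limma), and passed without a filter, at a minimum value of 5 and without a trend (0.00928 to 0.0439). Rassf1, a Ras-association tumour suppressor, was at 3.38 and 6.25 against 24.8, 18.4 and 33.1 (−2.19, 0.0708), and passed at a minimum value of 5 (0.0477). Usp9x, a deubiquitinase active in neuronal growth, was at 25.3 and 20.1 against 45.3, 74.6 and 65.2 (−1.38, 0.0708), and passed without wild-type injured replicate 1. Odc1, the first enzyme of polyamine synthesis, was at 58.1 and 64.2 against 167, 120 and 148 (−1.22, 0.0718). These groups were separate as well, again by the rule that named the genes. That condition was met by 23.5% of all members, 10.3% with the knockout above and 13.3% with the knockout below.

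The immediate early genes, transcription factors and effectors switched on within minutes by activity and injury, lay lower in the injured knockout without any passing. Of 35 listed, 0 were called, 34 were below 0 and 16 passed at an unadjusted p under 0.05, all lower. The median difference was −1.20, against −0.05 for all members, and the smallest adjusted p was 0.0728 (limma), for Nr4a1, which passed at a pseudocount of 5 (0.039). In 16 of the 35 (45.7%) both knockout libraries lay below all wild-type libraries, beside 13.3% of all members. This list was drawn up with earlier results of these data known, and its direction is not independent evidence.

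Nr4a1, an orphan nuclear receptor induced by activity, was at 39.7 and 88.2 in the knockout and at 288, 182 and 319 in the wild type (−2.09 ± 0.42, SE). Arc, which acts on dendritic receptor trafficking, was at 0 and 2.58 against 17.3, 11.3 and 13.9 (adjusted p = 0.12), and Egr2 at 0 and 0.009 against 9.05, 7.2 and 2.35 (0.12), with no overlap in either gene. Egr2 passed without wild-type injured replicate 3. Fos, which forms AP-1 dimers with Jun, was at 88.8 and 340 against 478, 267 and 501, and Jun at 40.9 and 87.3 against 155, 92.6 and 165. For Fos the groups overlapped, since knockout replicate 2 lay above wild-type replicate 2, and for Jun they did not. Junb, at 28.1 and 72.8 against 117, 72.3 and 178, overlapped at its edge. Gadd45g, a stress-responsive growth arrest protein, was at 70.8 and 203 against 378, 218 and 448, Npas4, an activity-dependent regulator of inhibitory synapses, at 11.4 and 23.4 against 63.8, 30.7 and 67.4, and Atf3, a stress-induced factor, at 13 and 7.21 against 12.14, 16.47 and 33.17. Their adjusted p were 0.319, 0.383 and 0.696.

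The 2 knockout libraries differed from each other in these genes. Knockout replicate 1 lay below all wild-type libraries in 30 of the 35 genes and replicate 2 in 17, and replicate 1 was below replicate 2 in 32. Relative to the wild-type mean the medians were −1.81 and −0.58 in knockout replicates 1 and 2, and 0.18, −0.45 and 0.32 in the 3 wild-type replicates, so wild-type replicate 2 lay near knockout replicate 2. Without knockout replicate 1 the list median was −0.58, and without replicate 2 it was −1.81. With equal totals it was −0.85, against 0.23 for all members.

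Naive neurites showed a median of −0.02 for the list, but single genes lay away from it. Fos was at 10.9 and 17.4 in the naive knockout against 2.11, 1.23 and 4.34 in the naive wild type (2.15). Arc was at 3.49 and 4.04 against 0.273, 1.51 and 0.679 (1.44), while Jun was slightly lower (−0.18). For Fos and Arc a part of the smaller injury difference below thus lies in the naive state. The injury difference was above 0 for all 35 genes in the wild type (median 2.69, 18 called) and for 29 in the knockout (median 1.09, 3 called), all higher, beside 0.795% and 0.0289% of all members called higher with injury. It was smaller in the knockout for 35 of 35. The injured libraries enter both contrasts, and the test of the difference between them gave a smallest adjusted p of 0.529 (limma), with 8 genes at an unadjusted p under 0.05.

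**Figure D5:**
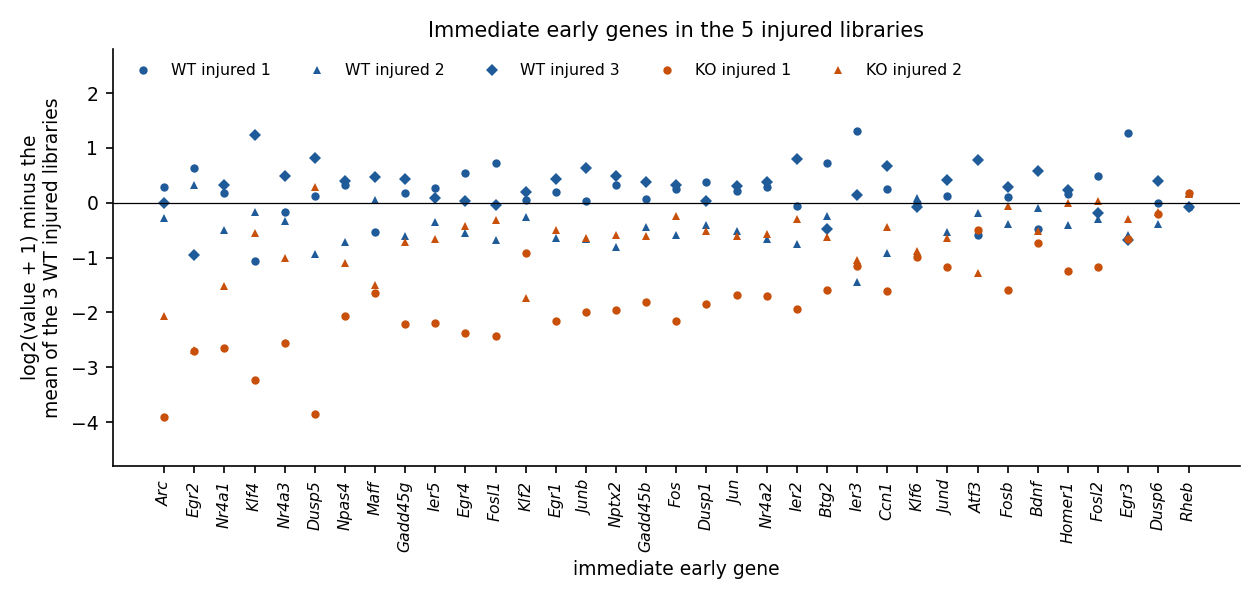
Difference of each injured library from the mean of the injured wild-type libraries (vertical axis, log2 scale) for the 35 immediate early genes (horizontal axis), 1 point per gene and library. Knockout replicate 1 has a median of −1.81 and knockout replicate 2 of −0.58, while the wild-type replicates lie between −0.45 and 0.32.

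The regeneration-associated genes, a set known from regrowing peripheral axons, had a median of −0.68 over 38 members, with Tuba1c the only one called. A further 4 passed higher and 8 lower at an unadjusted p under 0.05. Their median was −0.28 without knockout replicate 1 and −0.35 with equal totals, where that of all members was 0.23. Beside Jun and Tubb3, given above, the list held Crem, a cAMP-responsive factor at 14.4 and 48 against 136, 45.4 and 154 (adjusted p = 0.257), whose groups overlapped. The injury median of this list was 0.88 in the wild type and −0.01 in the knockout. Tubulins and microtubule-associated proteins (31 members, median 0.14) included 8 higher and 4 lower unadjusted, and axonal motors (26 members, median 0.04) included 4 lower and 1 higher. Beside Kif1a, Kif5b was at 47.3 and 69.4 against 104.5, 97.1 and 144 (adjusted p = 0.23).

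Stress and proteostasis genes were below the members' median. In the heat shock and proteostasis list 23 of 29 were below 0 (median −0.34) and 12 had both knockout libraries below all wild-type ones, beside 13.3% of all members. Hsp90aa1, a cytosolic chaperone, was at 787 and 939 against 1271, 1263 and 1548 (−0.66, adjusted p = 0.153, limma), with no overlap. Of 26 genes of the integrated stress and unfolded protein responses 20 were below 0 (median −0.38), and Trib3, a pseudokinase of that response, was at 0.928 and 0 against 4.81, 3.39 and 6.42 (adjusted p = 0.268). The first list had 5 genes lower and the second 7 lower at an unadjusted p under 0.05, with 0 called in either. The stress list median was −0.06 with equal totals, against 0.23 for all members.

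Cell type markers varied between the groups to differing extents, and their part in the results was not tested. Astrocyte markers were below 0 in 15 of 18 (median −0.54, 0 called), and their sum was 2436 to 2766 in the knockout and 2722 to 5775 in the wild type. Without wild-type replicate 3 their median was −0.24. Markers of radial glia and progenitors had a median of −0.57 (17 members, −0.13 without knockout replicate 1) and cell cycle genes −0.41 (29 members, 24 below 0). Projection neuron markers had a median of −0.06 that changed sign with several settings, and 9 of the 19 were above 0 and 10 below. Neurod6 was at 271 and 203 against 153, 190 and 129 (0.59, adjusted p = 0.353, limma), while Neurod2 was lower (−0.59, 0.48). The interneuron list had a median of 0.14, and was −0.27 without knockout replicate 2. Its member Penk was the only one called, while Sst was at 26.9 and 41 against 35.8, 26.5 and 36.3 (adjusted p = 0.999) and Gad1 at 12.2 and 7.27 against 5.5, 16.9 and 8.59 (1). Dlx5, a transcription factor of interneurons, was at 2.32 and 8.43 against 0.171, 1.02 and 0.049 (2.05, adjusted p = 0.294). Reln went the other way (−2.03, adjusted p = 0.401, limma), and Dlx1 was higher (1.23, 0.454). Of the 15 members of the interneuron list 10 were above 0 and 5 below.

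The 5 neurofilament genes had a median of −0.37 with 0 called, and Nefm, the medium chain, was at 4.59 and 16.4 against 30.1, 31.1 and 20.5 (adjusted p = 0.432, limma), with no overlap.

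Immune and connective markers were sparse. Gbp2, an interferon-induced GTPase, was at 3.88 and 12.1 in the knockout against 0, 0 and 0.099 (adjusted p = 0.0708, limma). The interferon-stimulated list had a median of 0.31 (25 members, 4 higher unadjusted). Col1a1, a collagen of fibroblasts, was at 0 and 0.046 against 1.46, 1.37 and 4.49, and the fibroblast list turned from −0.52 to 0.18 without wild-type replicate 3.

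Cytosolic ribosomal protein genes, which encode the proteins of both ribosomal subunits, were below 0 in 74 of 80 members (median −0.28), with only Rps13 called and 11 lower unadjusted. In 25 of the 80 both knockout libraries lay below all 3 wild-type libraries, and in none above, beside 13.3% and 10.3% of all members. Rpl12 was at 30.5 and 35.1 against 74.1, 54.6 and 69.4 (−0.98 ± 0.30, SE, adjusted p = 0.281, limma). The median was −0.08 without wild-type replicate 3, and it changed sign to 0.07 with equal totals, where that of all members was 0.23.

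Neither the polyadenylation list nor that of reported CPEB1 targets held a called gene. The cytoplasmic polyadenylation and deadenylation list (42 members) had a median of −0.08 and 0 calls, with Pabpn1, the nuclear poly(A)-binding protein, at 74.1 and 56.8 against 91.2, 125 and 129 (−0.80, adjusted p = 0.295) and Pabpc1, the cytoplasmic one, at 87.9 and 72.4 against 106, 125 and 225 (−0.85, 0.367). The reported CPEB1 target mRNAs (14 members) had a median of 0.02, 0 calls and 0 at an unadjusted p under 0.05, against 10.5% of the tested genes. Myc was at 60.4 and 61 against 89.4, 66.2 and 94.3 (−0.43, adjusted p = 0.569), with no overlap. Map2, whose mRNA carries the element in dendrites, was at 179 and 115 against 201, 178 and 170 (−0.34, adjusted p = 0.597).

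Genes with an element in the longest 3′ UTR (7736) had a median difference of −0.06, and those without (4422) of 0.00. Of the former 2 were called higher and 3 lower (0.0646%), and of the latter 9 higher and 4 lower (0.294%). All of these calls were protein-coding genes, and 0.147% of protein-coding members were called, 0.0905% of those without a copy. The 0.296% over all members includes pseudogenes, called at 4.46%. Of the called protein-coding genes 8 had a near-identical copy, and the part of copies in the 2 shares was not tested. Of those with an element 6.46% were lower and 4.25% higher at an unadjusted p under 0.05. Of those without 5.95% were lower and 6.06% higher. UTRs with an element are longer (median 1994 against 641 bases). Within 3 bins of short, middle and long UTRs of equal number the medians were −0.07, −0.03 and −0.09 with an element and 0.01, 0.02 and −0.04 without. With equal totals both medians were positive, at 0.23 and 0.31, and that of all members was 0.23.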

How the data were processed

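Polyadenylated RNA from neurites was sequenced after Smart-seq2 and Nextera XT preparation (1 ng of RNA, 14 and 11 cycles of PCR), per the labels' protocols. STAR 2.4.2a, RSEM 1.2.21 and the build mm10 are named per the submitters' processing notes. The deposited matrix gives gene values that were taken here as the authors' FPKM, each library divided by its TMM factor; this was inferred from the values (factors recomputed here deviated by at most 0.160%), and RSEM TPM without mitochondrial genes cannot be told apart from it. Genes were matched to GENCODE M21 by Ensembl identifier (44548 of 45195, 647 without a match). Values were tested as log2(value + 1) with limma 3.58.1 in R 4.3.3 (empirical Bayes with a mean-variance trend, 4 group means over all 10 libraries, so that the groups share 1 estimate of the spread, 6 residual degrees of freedom), over the 15712 genes with at least 1 in at least 2 of the 10 libraries, with Benjamini-Hochberg adjustment and a threshold of 0.05. Copies were searched with blastn 2.17.0. The fit was tested on simulated data. Lists are described by counts and medians, without a list test. The members and lists were chosen with earlier results of these data known.

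Named genes were the 4 Cpeb genes, every called gene if 40 or fewer were called (41 were, so this part did not apply), the 12 largest rises and falls with at least median expression and no overlap of the injured groups, passing over pseudogenes and unnamed models and filled up by the smallest p, the 4 smallest p of each direction of the interaction, for each list described at most 4 members, those of smallest p, and 12 injury genes. The lists described were 9 set in advance and the 6 others of at least 5 members whose median lay farthest from that of all members; 35 lists were drawn up. The heat shock, tubulin and motor lists, and the Hsp90aa1 and Kif5b values, were added after their values were seen. Alternatives were other pseudocounts, filters, scalings, variance models and sets of libraries, a replicate block, and each library left out in turn. Over all genes same-numbered libraries did not deviate together (correlations of −0.05 to 0.04), and the main fit did not pair them. Some genes given below followed the number in the knockout, so pairing by number was not settled.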

Additional observations from a re-analysis of the deposited data

How the results depend on the processing

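The injured comparison called 41 genes, and between 30 and 50 under the settings that kept all kinds of gene: 30 with the replicate block, 32 with the 5 injured libraries alone (12 higher and 20 lower, 16 shared with the 41), 50 with a value of at least 5 required (25 higher and 25 lower), 44 without a filter (36 higher and 8 lower) and 45 with equal totals (35 higher and 10 lower). Restricted to protein-coding genes without a copy, 2 were called, Penk and Rogdi, both higher. Leaving out each library in turn gave 24 (without knockout injured replicate 2) to 57 (without wild-type injured replicate 2). The naive comparison called 23 genes, 52 without a filter, 0 when only coding genes lacking a copy entered (limma, 359 at an unadjusted p under 0.05), 20 with the replicate block and 17 to 27 with a library left out. The interaction called 0 genes, 13 without a filter, 3 without a trend, 0 with the replicate block, and 0 to 2 with a library left out (2 without wild-type injured replicate 2, 1 without wild-type naive replicate 2). The cause of these changes was not tested. The difference for Cpeb1 kept its sign and did not pass under any setting run, from −2.65 without wild-type injured replicate 1 to −1.07 without wild-type injured replicate 3, with −1.41 under the replicate block. Of the 35 lists 14 had a median above 0, 25 with equal totals and 10 to 14 with a library left out. With equal totals the median of all members was 0.23. Signs changed, passing in neither fit, for Pdgfrb (−0.30 to 1.45), Tagln (−2.23 to 0.49) and Sst (−0.27 to 0.32) with a library left out, and for Gad1 (−0.33 to 0.40 with a library left out, −0.0089 at a pseudocount of 5, −0.00539 with the replicate block). The files give no counts, so no limit of detection by depth is given for values listed at 0.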

Other observations

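Some pseudogenes differed between the knockout replicates in the same direction in injured and naive neurites. Atp6v0c-ps2 was at 67.6 and 225 in injured knockout replicates 1 and 2 and at 46.2 and 202 in naive knockout replicates 1 and 2. Gm9825, a copy of the splicing activator Rnps1, was at 12.7 and 49.4 injured and at 11.6 and 45.6 naive. Rps2-ps6 was at 17.3 and 58.9 injured and at 12.9 and 61.4 naive, and Rps2-ps10 at 51.0 and 150 injured and at 68.5 and 174 naive. The injured calls of Gm9825, Rps2-ps6 and Rps2-ps10 were lost without knockout injured replicate 2 or wild-type injured replicate 1 (adjusted p = 0.0613 to 0.255, limma). Gm9825 and Rps2-ps6 passed the filter on low values only through the knockout, where they are high, so their tests draw on the values that let them in. Rps3a1, the parent gene of another called family, went the other way, with 544 and 272 injured and 629 and 224 naive. Over all genes the same-numbered libraries did not deviate together, and these genes were chosen after their values were seen.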
